A study of Mus musculus with 9 samples.

Results

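Monocytes leave the bone marrow, patrol vessels and enter tissue under the control of a small set of surface receptors, and 8 of their genes are described here: the chemokine receptor genes Ccr1, Ccr2, Cx3cr1 and Cxcr4, the atypical receptor gene Ccrl2, the sphingosine-1-phosphate (S1P) receptor genes S1pr1 and S1pr5, and Selplg, which encodes the selectin ligand PSGL-1. They were taken by symbol from the 23234 gene symbols of each table, and all 8 were found. RNA of CD11b+ cells sorted from peripheral blood of C57BL/6 mice aged 8 months was sequenced, with 4 libraries of Gr-1+ cells and 5 of Gr-1- cells. The antibody Gr-1 binds Ly6C and Ly6G, and Gr-1+ monocytes are commonly called classical, Gr-1- monocytes nonclassical or patrolling. The study asked how both subsets compare when Fcgr2, the gene of the inhibitory IgG receptor CD32, is missing from different cell types.

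By their labels, the Gr-1+ libraries came from Fcgr2-/-.Yaa mice (called null, 2 libraries), CEBPaCre;Fcgr2 fl/fl.Yaa mice (CEBPaCre, 1 library) and CD19Cre;Fcgr2 fl/fl.Yaa mice (CD19Cre, 1 library). The Gr-1- libraries were 1 each from null, CEBPaCre, CD11cCre (CD11cCre;Fcgr2 fl/fl.Yaa), CD19Cre and floxed (Fcgr2 fl/fl.Yaa, no Cre) mice. CEBPaCre acts in myeloid cells, CD11cCre in dendritic cells and a part of the monocytes, and CD19Cre in B cells, so the CD19Cre and floxed monocytes are expected to keep the gene. Every group carried Yaa, a Y-linked accelerator of autoimmunity with an extra copy of Tlr7, so no group without Yaa, and none with wild-type Fcgr2 alleles, was compared. The labels do not say whether libraries came from separate or pooled animals, and a p-value here covers the spread from library to library and nothing beyond it.

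Chemokine receptors are G protein-coupled receptors that steer cells along gradients of their ligands, while S1P receptors sense the S1P of blood and lymph and let cells out of tissues, and PSGL-1 lets cells roll on the selectins of activated endothelium. In mice, CCR2 is needed for classical monocytes to leave the bone marrow, CX3CR1 supports the survival and crawling of nonclassical monocytes, CXCR4 holds cells in the marrow, and S1PR5 is needed for nonclassical monocytes to reach the blood. CCRL2 binds chemerin without signalling of its own and presents it to other cells.

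Of the 8 genes, 6 have a start-site window in the RefSeq promoter table (build GRCm38.p6), and S1pr1 and Selplg have none there. The windows of the 3 genes that passed the test between the subsets are shown, to give the letters at the starts of the genes that separated the subsets. Each runs 5′ to 3′ from 250 bases before to 50 bases after the start on the gene's own strand. Capitals mark the GC box GGGCGG and the ETS core GAGGAA of the PU.1 type on either strand. The Ccr2 window lies at chr9:124101933-124102232 on the plus strand, the Ccr1 window at chr9:123968643-123968942 on the minus strand and the S1pr5 window at chr9:21248394-21248693 on the minus strand.
Ccr2: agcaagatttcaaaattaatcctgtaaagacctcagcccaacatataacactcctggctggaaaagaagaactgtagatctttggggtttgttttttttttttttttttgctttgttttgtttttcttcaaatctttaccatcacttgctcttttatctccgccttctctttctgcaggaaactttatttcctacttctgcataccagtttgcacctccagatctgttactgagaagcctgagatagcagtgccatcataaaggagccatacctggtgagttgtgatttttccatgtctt
Ccr1: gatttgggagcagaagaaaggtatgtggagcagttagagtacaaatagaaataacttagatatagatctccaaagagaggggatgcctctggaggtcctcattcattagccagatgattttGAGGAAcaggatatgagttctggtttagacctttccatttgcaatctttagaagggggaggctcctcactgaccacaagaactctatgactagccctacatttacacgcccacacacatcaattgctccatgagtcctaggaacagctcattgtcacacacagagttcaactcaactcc
S1pr5: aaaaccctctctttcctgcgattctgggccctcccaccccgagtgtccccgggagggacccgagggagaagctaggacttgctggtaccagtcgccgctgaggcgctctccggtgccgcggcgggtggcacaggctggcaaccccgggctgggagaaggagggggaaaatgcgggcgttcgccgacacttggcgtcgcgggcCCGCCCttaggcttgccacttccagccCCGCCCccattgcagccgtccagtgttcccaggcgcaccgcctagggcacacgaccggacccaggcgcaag

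The 3 windows were unlike in base composition. The Ccr2 window held 38.0% G and C with 1 CpG, and the Ccr1 window 44.0% with 1 CpG, while the S1pr5 window held 69.3% with 27 CpGs. The median of all 27025 windows was 52.7% with 7 CpGs. The S1pr5 window had 2 GC boxes and the Ccr1 and Ccr2 windows none, and 35.9% of all windows had at least 1. GAGGAA occurred 1 time in the Ccr1 window and in neither of the other windows shown, and 28.3% of all windows had it. Of the other patterns searched on both strands, CACCC occurred 2 times in the S1pr5 window and in 56.7% of all windows, while TTGCNNAA (10.8%), AAAGGTCA (1.46%) and TATAAA (14.2%) were in none of the 3 windows. A pattern is a match of letters only, and no match overlaps another in the windows shown.

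The sort was checked against marker genes. The 16 classical markers summed to 29589 to 36490 FPKM (fragments per kilobase of transcript, scaled to the mapped total of the library, the unit of all levels here) in Gr-1+ libraries and to 6859 to 14748 FPKM in Gr-1- libraries. Lyz2, a lysozyme gene, made up most of these sums, at 22275 to 30675 FPKM in Gr-1+, against 5546 to 13014 FPKM in Gr-1- libraries. Of the classical markers, Cd14, Itgam and Csf1r did not pass the test below, and Csf1r was at 494 ± 130 FPKM in Gr-1+, against 920 ± 329 FPKM in Gr-1- libraries (SD, n = 4 and 5), a difference called lower under 3 other scalings. The 15 nonclassical markers summed to 431 to 791 FPKM in Gr-1+, against 3412 to 5584 FPKM in Gr-1- libraries, and the 15 genes were each lower in Gr-1+ by the test below. Erythroid genes, summed over 7, overlapped between the subsets, at 296 to 2575 FPKM in Gr-1+, against 501 to 3715 FPKM in Gr-1- libraries, while neutrophil and NK cell genes did not. The 16 neutrophil genes found summed to 750.9 to 2395 FPKM in Gr-1+, against 71.9 to 156 FPKM in Gr-1- libraries, with Camp at 0 in every Gr-1- library. The 14 NK cell genes summed to 1.71 to 4.63 FPKM in Gr-1+, against 26.1 to 512 FPKM in Gr-1- libraries, with Ncr1 at 0 in every Gr-1+ library. Fcgr2b, the symbol for the targeted gene in the files, was listed at 83.0 to 201 FPKM in the 5 null and CEBPaCre libraries and at 74.9 to 195 FPKM in the 3 CD19Cre and floxed libraries, so its RNA did not follow the labels and genotypes are named only as labelled. Both CD19Cre libraries stood apart: genes of 82 ribosomal proteins made up 1.90% (Gr-1+) and 2.16% (Gr-1-) of all FPKM there, and between 3.48% and 7.39% in each of the remaining 7 libraries.

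Between the subsets, Ccr2 and Ccr1 were higher and S1pr5 was lower in Gr-1+ monocytes (15.0-fold, 18.3-fold and 10.6-fold as ratios of geometric means of FPKM + 1), and Cx3cr1, Cxcr4, Ccrl2 and Selplg did not pass the test. Differences were fitted with limma on log2(FPKM + 1) over the 10436 genes whose mean was 1 FPKM or more, and a gene was called where its p, adjusted by Benjamini and Hochberg's method, was 0.05 or less. Of the 8 genes, 7 passed this filter and 3 of the 7 were called, where 14.8% of all tested genes were called. Calls toward Gr-1+ numbered 2 of 7, against 8.84% of all tested genes, and calls toward Gr-1- numbered 1 of 7, against 5.95%. S1pr1 lay below the filter and is given by its values. The 3 calls and their directions held under 3 other scalings of the libraries, although the split of all calls moved: 923 were higher and 621 lower in Gr-1+ as deposited, and 858 higher and 972 lower after each library was rescaled to the TPM unit, in which all libraries have the same sum. The median log2 difference of all tested genes was 0.09 as deposited, -0.05 after rescaling to TPM, -0.01 with median-of-ratios factors and 0.01 after quantile normalisation. In bulk RNA, fewer cells that express a gene and less RNA per cell cannot be told apart.

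**Figure D1:**
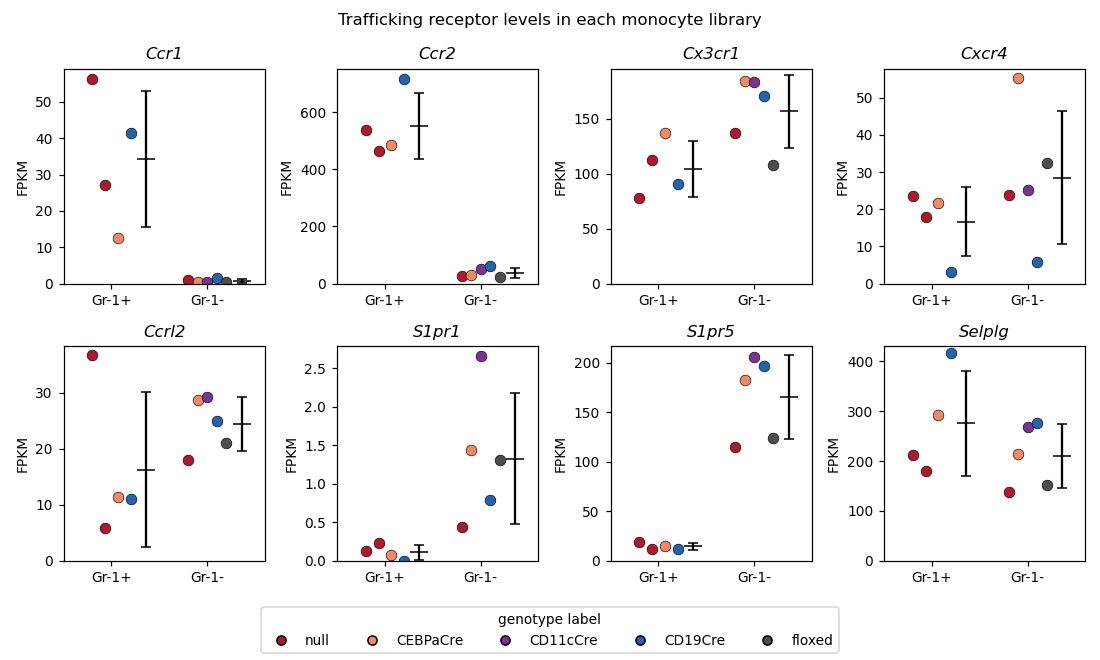
FPKM of the 8 trafficking receptor genes in each library (points, coloured by genotype label), with Gr-1+ libraries left of Gr-1- libraries; bars are the mean and SD over 4 Gr-1+ and 5 Gr-1- libraries, and each panel has its own linear axis. Ccr1 and Ccr2 separate the subsets upward and S1pr1 and S1pr5 downward, while the points of the other genes overlap.

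Ccr2 is the receptor for CCL2 and CCL7. It was listed at 539.6, 465, 485 and 718 FPKM in the Gr-1+ libraries labelled null (replicates 1 and 2), CEBPaCre and CD19Cre, against 28.2, 28.6, 49.9, 62.0 and 21.5 FPKM in the Gr-1- libraries labelled null, CEBPaCre, CD11cCre, CD19Cre and floxed. Every Gr-1+ library lay above every Gr-1- library, a separation in that direction that 10.2% of tested genes showed, and the CD19Cre library was the highest of its subset in both subsets. In the fit the log2 difference was 3.91 ± 0.31 (SE; limma adjusted p = 1.68e-05). Within Gr-1+ the highest library held 1.54 times the lowest, and within Gr-1- the highest held 2.88 times the lowest. Where a genotype had both subsets, the ratio of FPKM + 1 was 18.5 and 16.0 in null (1 Gr-1- library against each Gr-1+ replicate), 16.4 in CEBPaCre and 11.4 in CD19Cre.

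Ccr1 encodes a receptor for CCL3, CCL5 and other CC chemokines. It was listed at 56.4, 27.1, 12.6 and 41.3 FPKM in the Gr-1+ libraries, in the same order of labels, against 1.05, 0.310, 0.450, 1.47 and 0.453 FPKM in the Gr-1- libraries. Every Gr-1+ library lay above every Gr-1- library, as for 10.2% of tested genes. The Gr-1+ libraries differed among themselves by 4.46-fold, with the CEBPaCre library lowest and null replicate 1 highest. Its log2 difference was 4.20 ± 0.38 (SE; limma adjusted p = 3.55e-05). Because Gr-1- levels lie near the added 1 FPKM, this size depends on it: with 0.1 FPKM added the log2 difference was 5.34 and with 5 FPKM added it was 2.64, and both passed the test. The summed neutrophil genes were also highest in null replicate 1, at 2395 FPKM against 750.9, 1031 and 1438 FPKM in null replicate 2, CEBPaCre and CD19Cre. S100a8 (1423 FPKM), S100a9 (413 FPKM) and Lcn2 (330 FPKM) gave most of that sum, and Prtn3, Cxcr2 and Stfa2l1 were also highest there. Among Gr-1+ libraries, Mpo, Elane, Ctsg, Camp, Ngp, Ltf, Csf3r and Itgb2l were highest in CD19Cre, and Retnlg and Mmp9 in CEBPaCre. The part of the neutrophil genes in the level of Ccr1 was not tested.

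Cx3cr1 is the receptor for the membrane-bound chemokine fractalkine. It was listed at 78.2, 112, 137 and 90.7 FPKM in Gr-1+ libraries, against 137, 184, 184, 170.3 and 107 FPKM in Gr-1- libraries. The subsets overlapped, since the CEBPaCre Gr-1+ library lay above the floxed Gr-1- library. At -0.58, its log2 difference did not pass (95% interval -1.11 to -0.05; limma adjusted p = 0.144). Within each genotype with both subsets the Gr-1+ level was below the Gr-1- level, by 1.22-fold to 1.87-fold in FPKM + 1. The call depended on the fit: with genotype as a fixed block the log2 difference was -0.62 (limma adjusted p = 0.0485), and after rescaling to TPM it was -0.74 (limma adjusted p = 0.0366).

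Cxcr4 is the receptor for CXCL12. It was listed at 23.7, 17.8, 21.7 and 3.13 FPKM in Gr-1+ libraries, against 23.7, 55.2, 25.3, 5.71 and 32.4 FPKM in Gr-1- libraries. The subsets overlapped, and in each the CD19Cre library was the lowest. The log2 difference between the subsets was -0.74 (95% interval -2.15 to 0.67; limma adjusted p = 0.514).

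Ccrl2, the atypical chemerin-binding receptor, was listed at 36.6, 5.91, 11.3 and 11.0 FPKM in Gr-1+ libraries, against 18.0, 28.6, 29.2, 25.0 and 21.0 FPKM in Gr-1- libraries. Of the Gr-1+ libraries, 3 lay below every Gr-1- library, and null replicate 1 lay above all of them. The log2 difference was -0.83 (95% interval -1.72 to 0.05; limma adjusted p = 0.215). Without null Gr-1+ replicate 1 it was -1.31 (limma adjusted p = 0.0101), so 1 library decided the call. That library also had the highest summed neutrophil genes (2395 FPKM, mostly S100a8, S100a9 and Lcn2), although most genes of that list were highest in another Gr-1+ library. The CCR1 ligand gene Ccl3 was also highest in null replicate 1, at 133 FPKM against 4.35, 15.3 and 12.1 FPKM in the other Gr-1+ libraries. Ccl3 was picked out after its values were seen, and the part of these genes in the level of Ccrl2 was not tested.

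S1pr5, the S1P receptor of nonclassical monocytes and NK cells, was listed at 19.3, 12.2, 14.7 and 11.5 FPKM in Gr-1+ libraries, against 115, 183, 206, 197 and 124 FPKM in Gr-1- libraries. Every Gr-1+ library lay below every Gr-1- library, a separation in that direction that 6.26% of tested genes showed. The log2 difference was -3.41 ± 0.25 (SE; limma adjusted p = 1.18e-05). Within genotypes S1pr5 was, in FPKM + 1, 5.70-fold and 8.76-fold lower in Gr-1+ in null, 11.7-fold lower in CEBPaCre and 15.8-fold lower in CD19Cre. NK cells also express this gene, and the summed NK cell genes in the Gr-1- libraries labelled null, CEBPaCre, CD11cCre, CD19Cre and floxed were 26.1, 165, 512, 136 and 199 FPKM. How much of its level NK cells gave was not tested.

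S1pr1, the S1P receptor that lets lymphocytes out of lymphoid organs, was near the lower end of the tables. It was listed at 0.133, 0.237, 0.0721 and 0 FPKM in Gr-1+ libraries, against 0.432, 1.44, 2.66, 0.791 and 1.31 FPKM in Gr-1- libraries. Its subsets did not overlap either, and the CD11cCre library was highest. Every Gr-1- library lay above every Gr-1+ library for 6.26% of the tested genes, which do not include S1pr1. The log2 difference in FPKM + 1 was -0.999, with an exact two-sided permutation p of 0.015873, the smallest that the 126 assignments of libraries can give. That test was chosen after its values were seen. In a limma fit of 19017 genes with no filter on the mean the adjusted p was 0.0283. T cell genes, summed over 8, were 0.259 to 1.39 FPKM in Gr-1+, against 1.71 to 15.1 FPKM in Gr-1- libraries, with the CD11cCre library highest. Of the 15.1 FPKM in that library, Lck gave 12.9 FPKM. Lck and Cd28 were highest there, while Cd3d, Cd3e, Cd3g, Cd4, Cd8a and Cd5 were highest in the floxed library. NK cell genes summed to 1.71 to 4.63 FPKM in Gr-1+, against 26.1 to 512 FPKM in Gr-1- libraries. In Gr-1- this NK cell sum was, like S1pr1, lowest in the null and highest in the CD11cCre library. B cell genes summed to 9.30 to 71.6 FPKM in Gr-1+, against 44.0 to 158 FPKM in Gr-1- libraries, with the CD19Cre library highest in each subset. The part of the T, NK and B cell genes in the level of S1pr1 was not tested. S1pr5 exceeded S1pr1 by 51.5-fold to 204-fold in the 3 Gr-1+ libraries with a value above 0 for S1pr1, and by 77.3-fold to 266-fold in Gr-1- libraries.

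Selplg, the gene of PSGL-1, was listed at 212, 181, 293 and 418 FPKM in Gr-1+ libraries, against 138, 214, 268, 277 and 152 FPKM in Gr-1- libraries. The subsets overlapped, and the CD19Cre library was highest in both. Its log2 difference was 0.38 (95% interval -0.31 to 1.06; limma adjusted p = 0.491). In each genotype with both subsets the Gr-1+ level was 1.31-fold to 1.54-fold above the Gr-1- level in FPKM + 1, and with genotype as a fixed block the log2 difference was 0.51 (limma adjusted p = 0.0405).

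**Figure D2:**
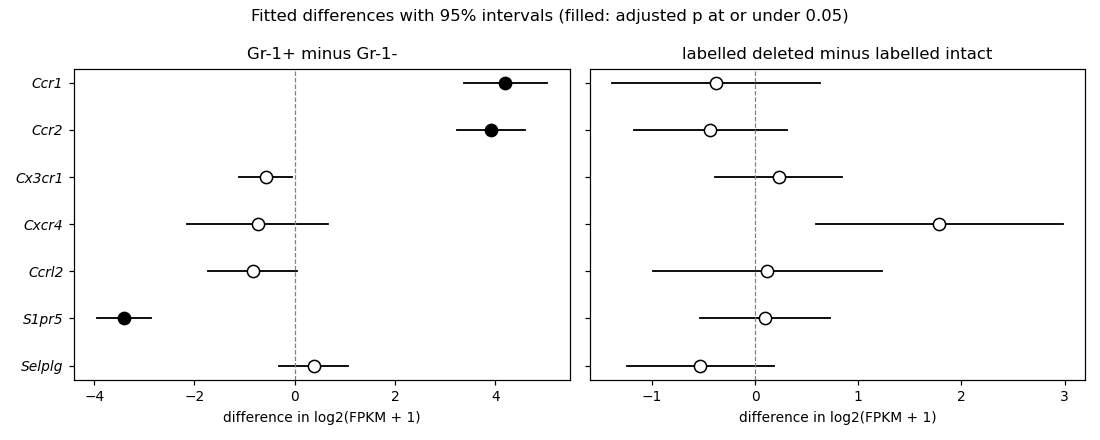
Fitted log2 differences in FPKM + 1 with 95% intervals for 7 receptor genes, Gr-1+ minus Gr-1- on the left (9 libraries) and labelled deleted minus labelled intact at equal subset on the right (8 libraries); filled points passed an adjusted p of 0.05 and S1pr1, below the filter, is not drawn. Ccr1 (4.20), Ccr2 (3.91) and S1pr5 (-3.41) passed on the left, and no gene passed on the right.

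FPKM is scaled per length, so levels of different genes can be set side by side within a library. In every Gr-1+ library the order from the top was Ccr2, Selplg and Cx3cr1, whose ranges over the 4 libraries (465 to 718, 181 to 418 and 78.2 to 137 FPKM) did not overlap. Below them Ccr1, Ccrl2, Cxcr4 and S1pr5 had overlapping ranges and changed places between libraries, and S1pr1 was last in all 4. In every Gr-1- library Selplg was first, with Cx3cr1 and S1pr5 next. S1pr5 lay above Cx3cr1 in 3 of the 5 libraries, and the ranges of all 3 genes overlapped. Ccr2, Cxcr4 and Ccrl2 followed with overlapping ranges, and S1pr1 and Ccr1 were the lowest pair, with S1pr1 above Ccr1 in 3 of the 5 libraries.

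Among 25 listed chemokine receptor genes, Ccr2 held 72.7% ± 4.70 of the summed receptor FPKM in Gr-1+ libraries (SD, n = 4) and 14.0% ± 5.40 in Gr-1- libraries (SD, n = 5). Cx3cr1 held 14.2% ± 4.83 in Gr-1+ and 58.1% ± 4.28 in Gr-1- libraries. The ratio of Ccr2 to Cx3cr1 was 3.55 to 7.92 in Gr-1+ and 0.155 to 0.364 in Gr-1- libraries, so Ccr2 lay above Cx3cr1 in every Gr-1+ library and below it in every Gr-1- library. Ccrl2 took 2.13% ± 1.80 in Gr-1+ and 9.08% ± 0.788 in Gr-1- libraries, and Cxcr4 2.32% ± 1.33 in Gr-1+ and 10.7% ± 6.12 in Gr-1- libraries. Shares within a library sum to a fixed whole, so a larger share of 1 receptor lowers the others. These shares are a description with no test.

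**Figure D3:**
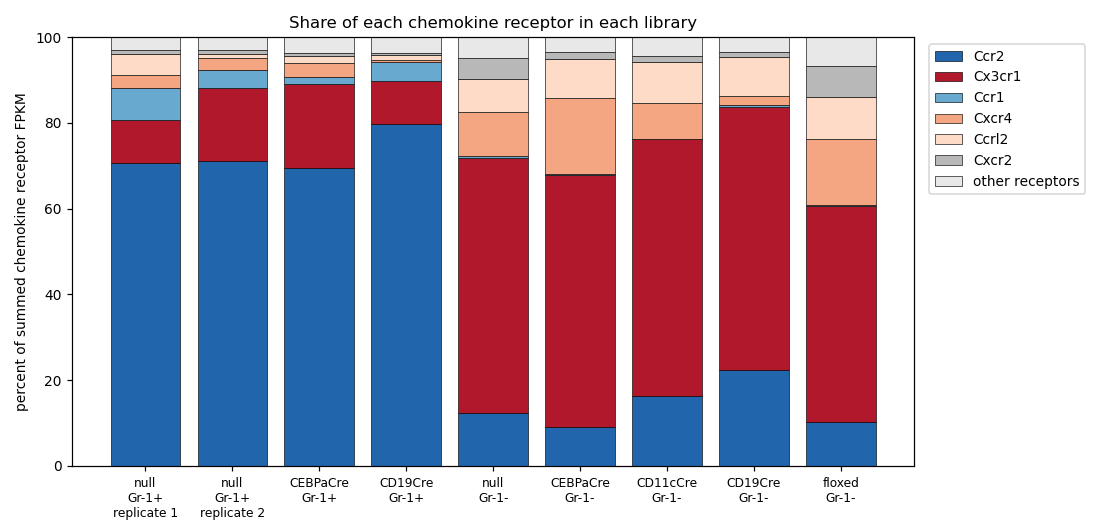
Percent of the summed FPKM of 25 chemokine receptor genes taken by each receptor in the 4 Gr-1+ libraries (left) and the 5 Gr-1- libraries (right). Ccr2 takes 69.4% to 79.7% in Gr-1+ libraries and 9.14% to 22.3% in Gr-1- libraries, where Cx3cr1 takes 50.6% to 61.4%.

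The genotype question was addressed by setting the 5 libraries labelled null or CEBPaCre, in which monocytes should lack Fcgr2, against the 3 labelled CD19Cre or floxed, with the subset as a covariate and CD11cCre left out. Of the 7 genes, 0 were called by limma, as were 0.00% of the 10429 genes tested. An unadjusted p under 0.05 was reached by 1 of the 7, Cxcr4, and by 14.1% of all tested genes. Cxcr4 was listed at 23.7, 17.8 and 21.7 FPKM in the Gr-1+ libraries labelled null and CEBPaCre, against 3.13 FPKM in the Gr-1+ library labelled CD19Cre. In Gr-1- it was listed at 23.7 (null) and 55.2 FPKM (CEBPaCre), against 5.71 (CD19Cre) and 32.4 FPKM (floxed). The floxed library thus lay between the libraries labelled deleted. The log2 difference was 1.78 ± 0.53 (SE), with an unadjusted p of 0.0081 and a limma adjusted p of 0.306.

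The values rested on single labels. Without both CD19Cre libraries the log2 difference of Cxcr4 was 0.16 (limma adjusted p = 0.914), and without the floxed library it was 2.44 (limma adjusted p = 0.00857). Without the floxed library the intact side consisted of the 2 CD19Cre libraries and 2551 genes were called, among them also Ccr2, at -0.80 (limma adjusted p = 0.0235). With library weights Cxcr4 was called at 2.28 (limma adjusted p = 0.0418) among 673 genes. For Ccr2 the log2 difference over the 8 libraries was -0.43 (95% interval -1.17 to 0.31) and for Selplg it was -0.53 (-1.24 to 0.18). Without both CD19Cre libraries both had the opposite sign, at 0.38 and 0.18. Ccr1 (-0.38, 95% interval -1.38 to 0.63), Cx3cr1 (0.23, -0.39 to 0.85), Ccrl2 (0.12, -0.99 to 1.23) and S1pr5 (0.10, -0.54 to 0.73) had intervals around 0.

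The test of whether the difference between the subsets itself depended on the deletion label called 0 of the 7 genes with limma, against 0.0863% of the 10429 tested, and 0 of the 7 had an unadjusted p under 0.05, against 3.25%. Its largest term was 1.09 for Cxcr4 (95% interval -1.36 to 3.54). For Ccr1 it was -0.38 (-2.55 to 1.79) and for S1pr5 0.48 (-0.86 to 1.82). There was 1 Gr-1+ library on the intact side, and these data do not tell apart values of the term within its interval.

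A test over all 5 genotype labels at equal subset called Cxcr4 (F = 26.7, limma adjusted p = 0.0214), Selplg (F = 12.5, limma adjusted p = 0.0272) and Ccr2 (F = 9.18, limma adjusted p = 0.0374). These 3 of 7 genes compare with 29.7% of all tested genes, with 3 residual degrees of freedom behind the test. Ccr1, Cx3cr1, Ccrl2 and S1pr5 did not pass (limma adjusted p of 0.119, 0.181, 0.993 and 0.664). The CD19Cre library was the lowest of its subset for Cxcr4 in both subsets, as for 13.1% of tested genes. It was the highest of its subset in both subsets for Ccr2 and Selplg, as for 31.0% of tested genes. These counts were chosen after the values were seen. The 2 CD19Cre libraries are also those with the lowest share of ribosomal protein genes, and that feature and the genotype label cannot be told apart. B cell genes, summed over 8 with Ebf1 at 0 in every Gr-1+ library, were also highest there, at 71.6 FPKM in the CD19Cre Gr-1+ library, against 9.30 to 18.8 FPKM in the other Gr-1+ libraries, and at 158 FPKM in the CD19Cre Gr-1- library, against 44.0 to 134 FPKM in the other Gr-1- libraries. Their part in these levels was not tested. Without the 2 CD19Cre libraries, limma called 0 of the 7 genes and 13 genes in all, with Cxcr4 at an adjusted p of 0.409, Selplg at 0.117 and Ccr2 at 0.113. Leaving out 1 library left between 0 and 3 of the 7 called, and the count was 0 without the CEBPaCre or the CD19Cre library of either subset or the null Gr-1- library. The shares of all genes called in these fits are not given here, so the counts are no result about the receptors.

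**Figure D4:**
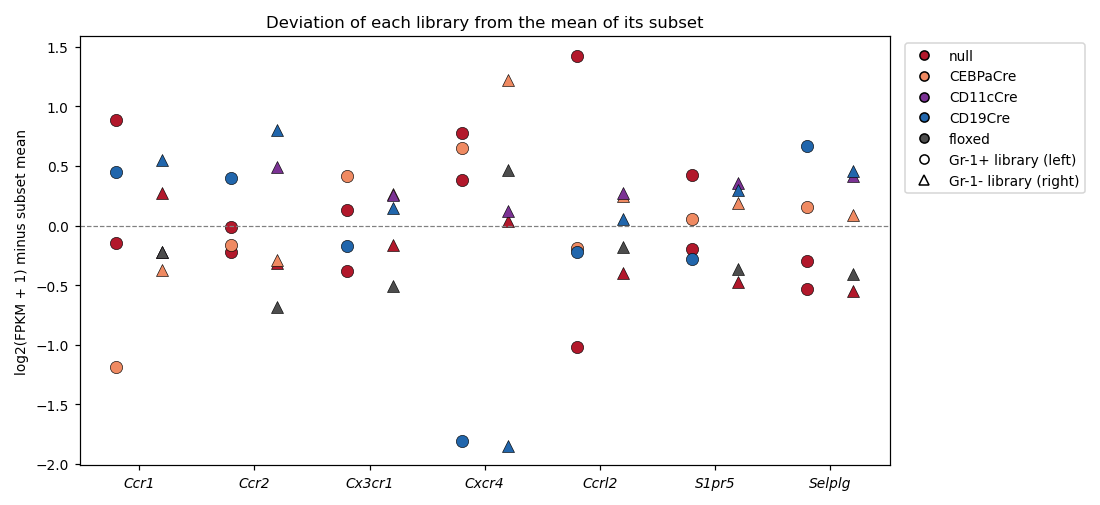
Log2(FPKM + 1) of each library minus the mean of its subset for 7 receptor genes, with circles for Gr-1+ and triangles for Gr-1- libraries and colours for genotype labels; S1pr1, below the filter, is not drawn. Both CD19Cre libraries lie lowest for Cxcr4 (-1.81 in Gr-1+ and -1.85 in Gr-1-) and highest for Ccr2 and Selplg.

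The other genes of the same pathways were read in the Gr-1+ minus Gr-1- fit, beside a median log2 difference of 0.09 over all tested genes, of which 8.84% were called higher and 5.95% lower. Folds in these lists are ratios of geometric means of FPKM + 1, and the counts are a description, since no list was tested against other genes. Of 20 other chemokine receptor genes, 4 were tested. Cxcr2, a receptor of neutrophils, was listed at 6.20 ± 1.53 FPKM in Gr-1+, against 7.80 ± 5.11 FPKM in Gr-1- libraries and did not pass (limma adjusted p = 0.878). Of 6758 stretches of 50 bases in Ccr2 transcripts, 1.91% occur in another gene, so a small part of their reads cannot be assigned with certainty. Ccr1 and Ccr2 lie in 1 cluster on chromosome 9, with Ccr1l1 and Ccr3 between them. In these genes, looked at after their values were seen, Ccr3 stayed at or under 1.12 FPKM and Ccr1l1 at or under 0.737 FPKM in all 9 libraries.

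Of 13 genes for ligands of these receptors, 7 were tested, with 3 higher and 1 lower in Gr-1+, where 8.84% of all tested genes were higher and 5.95% lower. The list's median was -0.25. Ccl2, the main ligand of CCR2, was listed at 56.7, 11.8, 8.28 and 14.8 FPKM in Gr-1+ libraries, against 2.03, 0, 2.85, 1.15 and 0.440 FPKM in Gr-1- libraries (log2 difference 3.15, limma adjusted p = 0.0023). Its subsets did not overlap, as for 10.2% of tested genes in that direction. Ccl9 (220.0 ± 79.6 FPKM in Gr-1+, 71.5 ± 17.4 FPKM in Gr-1-) and Ccl6 (777 ± 104 FPKM in Gr-1+, 459 ± 6.65 FPKM in Gr-1-), both mouse ligands of CCR1, were also higher in Gr-1+ (limma adjusted p of 0.0057 and 0.0182). Ccl5, a ligand of CCR1 that NK and T cells make, was lower in Gr-1+ (log2 difference -4.88, limma adjusted p = 0.00155), at 0.574 to 4.92 FPKM, against 18.4, 90.3, 374, 39.2 and 209 FPKM in the Gr-1- libraries labelled null, CEBPaCre, CD11cCre, CD19Cre and floxed. The lowest and highest of these Gr-1- libraries are also the lowest and highest in summed NK cell genes (26.1 and 512 FPKM), and the part of NK cells in Ccl5 was not tested.

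In the S1P list, 8 other genes were tested, with 2 higher and 0 lower in Gr-1+, beside 8.84% and 5.95% of all tested genes, and a median of 0.68. S1pr2, an S1P receptor that restrains migration, was at 12.98 ± 3.85 FPKM in Gr-1+, against 5.90 ± 2.06 FPKM in Gr-1- libraries (log2 difference 1.03, limma adjusted p = 0.0256), opposite in direction to S1pr5. Sphk2, a kinase that makes S1P, was 1.67-fold higher in Gr-1+ (limma adjusted p = 0.0268). S1pr4, the S1P receptor of haematopoietic cells, was listed at 3.89 ± 1.73 FPKM in Gr-1+, against 7.92 ± 2.32 FPKM in Gr-1- libraries and did not pass (limma adjusted p = 0.0612), but was called lower under quantile normalisation and without both CD19Cre libraries.

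Around PSGL-1, 15 selectin and selectin ligand genes were tested, with a median of 0.37. C1galt1c1, the chaperone of the enzyme that extends O-glycans, was 3.65-fold higher in Gr-1+, at 55.5 ± 20.5 FPKM in Gr-1+, against 14.2 ± 3.61 FPKM in Gr-1- libraries. Of the sialyltransferase genes, St3gal3 was 2.12-fold higher in Gr-1+ and St3gal6 was lower, at 0.333 ± 0.163 FPKM in Gr-1+, against 6.25 ± 1.65 FPKM in Gr-1- libraries (log2 difference -2.42, limma adjusted p = 2.42e-05). Fut4, Fut7, Gcnt1, St3gal4, B4galt1, C1galt1, Tpst1 and Tpst2 of this list did not pass as deposited, and neither did Selplg itself.

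Of 15 genes for integrins of firm arrest and their activators, 1 was higher and 3 were lower in Gr-1+, beside 8.84% and 5.95% of all tested genes, with a median of -0.44. Itgal, the alpha chain of LFA-1, was at 99.0 ± 12.5 FPKM in Gr-1+, against 301 ± 89.99 FPKM in Gr-1- libraries (log2 difference -1.55, limma adjusted p = 0.0018), and Rasgrp2, an activator of Rap1 upstream of integrins, was 1.90-fold lower. Itgax, which encodes CD11c, was lower in Gr-1+, at 1.03 to 4.10 FPKM. In Gr-1- it was at 301 FPKM in the CD11cCre library and at 33.8 to 66.0 FPKM in the other libraries. Itga5, a chain of the fibronectin receptor, was 3.16-fold higher in Gr-1+ (limma adjusted p = 0.00912). Under TPM, median-of-ratios and quantile scaling 6 genes of this list were lower, with Icam2, Itgb1 and Itgb2 added. Itgb7 was added as a higher gene under median-of-ratios scaling and without both CD19Cre libraries.

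Downstream of the receptors, 3 of 21 G protein signalling genes were higher in Gr-1+ and 0 lower, beside 8.84% and 5.95% of all tested genes, with a median of 0.02. The G protein subunit gene Gng2 was at 17.0 ± 1.92 FPKM in Gr-1+, against 2.98 ± 0.606 FPKM in Gr-1- libraries (log2 difference 2.18, limma adjusted p = 1.78e-05), and Gnaq and Gng10 were 2.58-fold and 1.73-fold higher. Of 12 tested genes for receptor desensitisation, 2 were higher and 1 was lower, beside the same shares of all tested genes, with a median of -0.10. Rgs10 and Rgs18, both GTPase activators that end G protein signals, were higher in Gr-1+ by 2.94-fold and 3.73-fold, and Rgs3 was 1.96-fold lower. The 7 tested neighbours of the chromosome 9 receptor genes had a median of 0.10, and Lztfl1 and Ltf were among those higher in Gr-1+. Ltf, next to Ccrl2, encodes the neutrophil granule protein lactoferrin and was listed at 1.90 to 18.4 FPKM in Gr-1+ libraries, against 0 to 0.156 FPKM in Gr-1- libraries. Under the 3 other scalings, and without both CD19Cre libraries, every call named in these lists kept its direction, and the 1 call lost was that of Gng10 under quantile normalisation. Fut7 and Rac2 were added as lower genes under each of the 3 scalings. In the deletion comparison, 0 genes of these 8 lists were called.

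**Figure D5:**
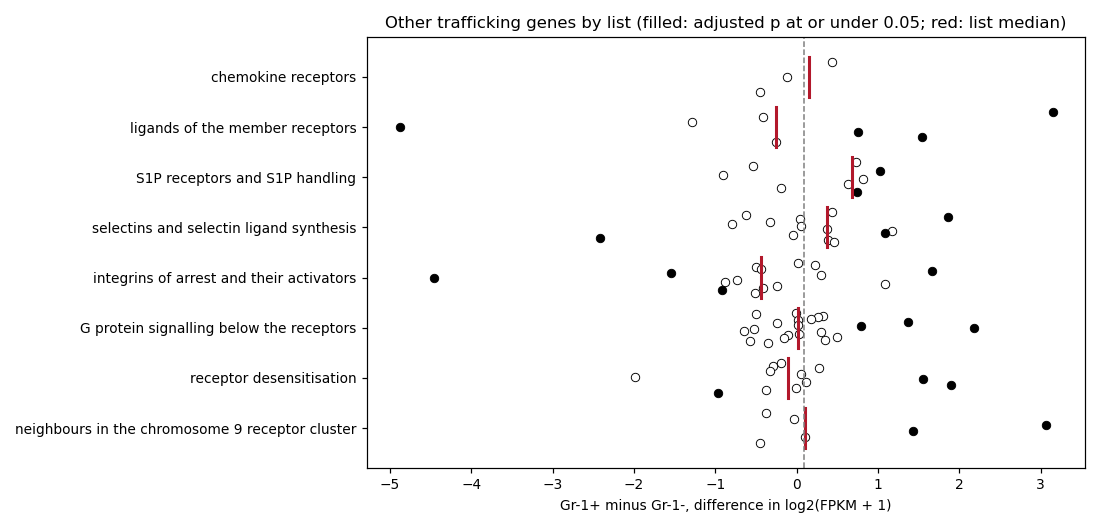
Log2 difference in FPKM + 1, Gr-1+ minus Gr-1-, of the tested genes in 8 lists around the receptors (the receptor genes themselves and 2 genes not reported here are not drawn, and those 2 count in the medians), with filled points past an adjusted p of 0.05, red bars at the list medians and the dashed line at the median of all tested genes (0.09). Calls stand on both sides of 0 for ligands, selectin genes, integrins and desensitisation genes.

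For each receptor gene the 3 genes with the most alike profile over the 9 libraries were found by the root mean square (RMS) difference in log2(FPKM + 1) after centring, among the 6623 genes that averaged 5 FPKM or more. The 3 genes nearest to Ccr2 included Trem2 (RMS 0.47) and Msr1 (RMS 0.48), where the median gene stood at 1.94. Ccr1 was nearest to Vcan (0.36), Tarm1 (0.41) and Prtn3 (0.44), the last a neutrophil granule protease gene on the marker list, where the median gene stood at 2.13. S1pr5 was nearest to Smagp (0.22), Rhof (0.23) and Pparg (0.25), where the median gene stood at 1.80. Cxcr4 was nearest to Sik1 (0.38), Atf4 (0.39) and Tnrc18 (0.42), and Ccrl2 to Btg1 (0.38), Rab20 (0.39) and Pde4b (0.40). Genes that vary little are near many others, as for Cx3cr1 with Tprn (0.10), Mat2a (0.14) and Unk (0.16) and for Selplg with Naglu, Gltp and Dohh (0.11 to 0.12), where the median gene stood at 0.55 and 0.44. S1pr1, at its low level, was nearest to Chmp2b (0.26), Ccdc88b (0.26) and Tnfrsf12a (0.27). These distances share libraries and depth and are a description.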

How the data were processed

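The deposited tables, 1 per library, give 1 FPKM value for each of 23234 gene symbols. Per the submitters' processing notes, TopHat2 2.0.8, Cufflinks 2.1.1 and the genome build mm9 were used, and whether the authors' counting used strand is not given in the sources used here. Per the labels' protocols, RNA was extracted with Trizol from sorted cells and made into cDNA with a SMART-Seq v4 kit. FPKM holds no counts, so depth in reads is unknown and no counting interval is given. Low values repeat in steps, from which relative depths of 0.705 to 2.66 times the floxed library were estimated.

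From these values, limma 3.58.1 in R 4.3.3 (lmFit, eBayes with a trend; statmod 1.5.0 for weights and random blocks) was run on log2(FPKM + 1) over the whole table. Genes entered with a mean of at least 1 FPKM and a value above 0 in at least 2 libraries, and p-values were adjusted over all genes tested. Only the subset fit was run on simulated data, with independent noise, and its outcome is not given here. The deletion, interaction and genotype fits were not run on simulated data. The subset fit had 9 libraries, the deletion and interaction fits 8, and the genotype F test 9, which leaves 3 residual degrees of freedom. Named genes were the receptor genes, up to 4 further genes with the smallest p per list, and the 3 most alike genes per receptor. The receptors, gene lists and tests were chosen with earlier results of these data known. Promoter windows came from RefSeq (GRCm38.p6). Python 3.11.15, numpy 2.4.6, pandas 2.3.3 and scipy 1.17.1 were used.

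Alternatives changed the added FPKM, the filter, the scaling, the variance model, library weights, genotype blocks and the libraries fitted. The permutation test of S1pr1, the counts of CD19Cre extremes and the rescaled lists were added after the data were seen. Results on 2 other genes of the lists are not reported here, and neither are the counts of calls in the lists that hold them.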

Additional observations from a re-analysis of the deposited data

How the results depend on the processing

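The calls of Ccr1, Ccr2 and S1pr5 between Gr-1+ and Gr-1- held under all 22 alternatives run, with log2 differences of 2.64 to 5.34, 3.73 to 4.11 and -3.61 to -3.11. The count of receptor genes called between the subsets was 5 with genotype as a fixed or as a random block, which added Cx3cr1 and Selplg, and 3 to 4 when 1 library was left out. Shares of all genes called with 1 library left out are not given here, so that range is no result about the receptors. No paired analysis was possible because null is the only genotype with numbered libraries and its subsets share only number 1; the genotype blocks set the subsets against each other within genotype labels and pair no animals. All genes called between the subsets numbered 1544, against 2712 and 3493 with the fixed and random genotype blocks, 2376 with library weights and 965 with only null, CEBPaCre and CD19Cre. In the deletion comparison the count was 1 with library weights and 0 to 2 when 1 library was left out. Shares of all genes are not given for each of these fits either, so these counts too are no result about the receptors. Signs turned for Ccr1 (0.17), Ccr2 (0.38) and Selplg (0.18) without both CD19Cre libraries, for Ccr1 (0.017) and S1pr5 (-0.024) with null alone as the deleted side, and for Ccrl2 (-0.012) and S1pr5 (-0.11) in Gr-1- alone, and 0 of these was called. Over libraries left out, the deletion term ran from -0.16 to 0.33 for Ccrl2 and from -0.11 to 0.30 for S1pr5. The interaction term turned for Ccr2 (0.031) and Cx3cr1 (0.21) with median-of-ratios scaling and for Cx3cr1 (0.19) with quantile normalisation. Over libraries left out it ran from -0.90 to 0.14 for Ccr1, -0.92 to 0.57 for Ccr2, -0.33 to 0.33 for Cx3cr1, -0.37 to 0.85 for Ccrl2 and -0.066 to 2.25 for Cxcr4, with 0 called. The interaction was not run without both CD19Cre libraries or without the CD19Cre Gr-1+ library, which leave no intact Gr-1+ library. For the genotype F test the count was 1 with no filter, 5 with library weights, 0 without both CD19Cre libraries and 0 to 3 when 1 library was left out. The main F test called 29.7% of all tested genes. Shares of all genes with no filter, with library weights and with 1 library left out are not given here, so these counts are no result about the receptors. The share of Cx3cr1 in Gr-1- libraries was 64.3% without atypical receptors. Causes of these changes were not tested.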
